A study of Mus musculus with 2 samples.

Results

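Mir182, Mir183 and Mir96 are 3 microRNA (miRNA) genes that lie side by side on mouse chromosome 6 and are known together as the sensory cluster. They were found by their Ensembl identifiers, matched to GENCODE mouse symbols, and all 3 had a row among the 1973 miRNA genes counted in each library. The libraries came from neural tube, the embryonic structure that forms the brain and spinal cord, taken from healthy mouse embryos of strain B6NCrl at embryonic day 11.5. There was 1 group, with 2 biological replicates that were each a pool of both sexes, with 109 embryos pooled for replicate 1 and 88 for replicate 2. Libraries were made from RNA under 30 nt. No other tissue, stage or treatment was measured.

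MiRNAs are short RNAs that pair with messenger RNAs, chiefly through their seed (bases 2 to 8 from the 5′ end), and lower the output of those messengers. The 3 miRNAs of this cluster are transcribed together and cut from a shared precursor. They are best known from sensory cells, such as photoreceptors of the retina, hair cells of the inner ear, olfactory neurons and neurons of the dorsal root ganglia, and changes in the miR-96 seed cause hearing loss.

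The mature sequences are shown because they tell which part of the 3 miRNAs is shared and which is not. They are the RefSeq sequences on GRCm38.p6, the assembly also called mm10, 5′ to 3′, with the seed in capitals, and all 3 genes matched. The left-hand (5p) arms of the hairpins read as follows.
miR-182-5p: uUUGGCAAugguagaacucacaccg
miR-183-5p: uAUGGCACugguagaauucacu
miR-96-5p: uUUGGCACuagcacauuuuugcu
The right-hand (3p) arms read as follows.
miR-182-3p: gUGGUUCUagacuugccaacu
miR-183-3p: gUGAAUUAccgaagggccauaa
miR-96-3p: cAAUCAUGuguagugccaauau

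No seed was shared within the cluster, but the 5p seeds were close. With positions counted from 1 at the 5′ end of the first miRNA named, miR-182-5p and miR-96-5p differed in the seed by A8C alone, miR-183-5p and miR-96-5p by A2U alone, and miR-182-5p and miR-183-5p by both U2A and A8C. Bases 3 to 7 of all 3 read UGGCA. Among 1679 mature mouse miRNAs of the RefSeq table, 5 (0.298%) had these letters at these bases, the 3 of the cluster, miR-1271-5p and miR-7022-5p. Over their whole length, miR-182-5p and miR-183-5p were the closest pair, with the same base at 18 of 22 positions (81.8%). The pair of miR-182-5p and miR-96-5p matched at 12 of 23 positions (52.2%), and that of miR-183-5p and miR-96-5p at 13 of 22 (59.1%). Beyond base 8 the matches were 12 of 14, 5 of 15 and 6 of 14.

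The letters that pair with each seed, written 5′ to 3′ as they would stand in a target, show the same relation. They are the reverse complements of bases 2 to 8 and describe the seeds only, since no target was measured here.
pairs with miR-182-5p: UUGCCAA
pairs with miR-183-5p: GUGCCAU
pairs with miR-96-5p: GUGCCAA

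Another mouse miRNA carried the whole miR-96-5p seed, while none carried that of miR-182-5p or miR-183-5p. It was miR-1271-5p, whose sequence is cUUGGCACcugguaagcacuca, from the gene listed as Gm24195 on chromosome 13 (mature arm 54578152 to 54578173, plus strand). Its gene had 0 counts on its own strand in both libraries, which allows up to 3 counts, or 0.809 counts per 1000000 (CPM) in replicate 1 and 0.740 CPM in replicate 2. Mir96 was the only gene of this seed with counts in these libraries.

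The files count reads per hairpin gene, so the arms could not be told apart. The hairpins are shown with both mature arms in capitals, since a read from either arm adds to the same count.
Mir182 hairpin: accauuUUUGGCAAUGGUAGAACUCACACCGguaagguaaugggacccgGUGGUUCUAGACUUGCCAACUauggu
Mir183 hairpin: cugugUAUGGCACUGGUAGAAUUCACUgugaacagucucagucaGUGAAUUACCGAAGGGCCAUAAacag
Mir96 hairpin: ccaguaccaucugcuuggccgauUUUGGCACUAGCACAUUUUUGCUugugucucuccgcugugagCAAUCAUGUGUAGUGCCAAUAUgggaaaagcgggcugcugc

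Reads that mapped to several places were given to no gene. Such reads formed 25.2% of the first replicate's total and 27.3% of the second's. The longest run that any of these 3 hairpins shared with another of the 2201 other miRNA hairpins of GENCODE M21 was 11 nt, shorter than a mature miRNA. No other annotated hairpin therefore held a whole mature sequence of these 3 genes.

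In GENCODE M21 (GRCm38), all 3 genes lie on the minus strand of chromosome 6 and are transcribed in the order Mir183, Mir96, Mir182. Mir183 (ENSMUSG00000065619.2) spans 30169668 to 30169737, or 70 bases. Mir96 (ENSMUSG00000065586.1) spans 30169446 to 30169551, or 106 bases, with 116 bases between it and Mir183. Mir182 (ENSMUSG00000076361.1) spans 30165918 to 30165992, or 75 bases, and lies 3453 bases beyond Mir96. The cluster covers 3820 bases, and 0 other annotated genes overlap it, so the 3 genes lie in no annotated exon, intron or UTR of a host. The nearest gene before it is Rncr4, a long noncoding RNA known from retina, 3155 bases away on the plus strand. The nearest after it is Nrf1, a transcription factor gene, 12459 bases away on the plus strand.

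**Figure D1:**
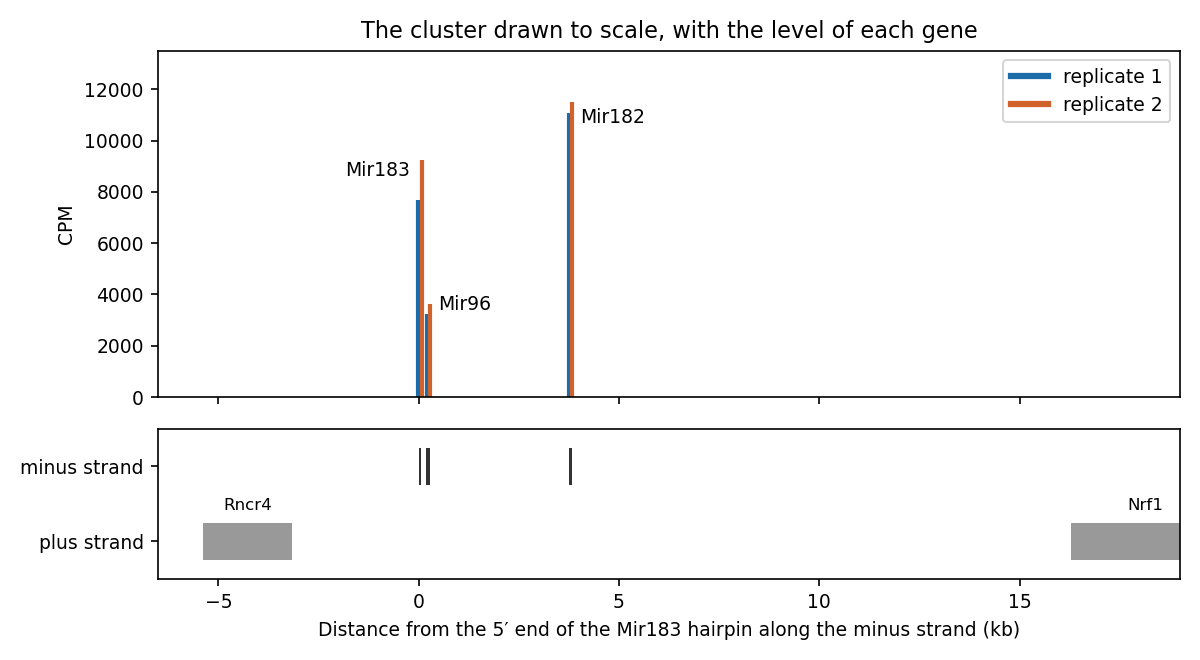
Upper panel: level (CPM, vertical axis) of Mir183, Mir96 and Mir182 in each library, as lines set beside each other at the position of each hairpin. Lower panel: the 3 hairpins (minus strand, black) and the neighbours Rncr4 and Nrf1 (plus strand, grey; Nrf1 runs on past the right edge), to scale in kb from the 5′ end of the Mir183 hairpin. The farthest gene, Mir182, was the highest in both libraries, and Mir96, next to Mir183, the lowest.

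Mir182 was the most abundant gene of the cluster, followed by Mir183 and Mir96, in both neural tube libraries. Levels are own-strand counts per 1000000 own-strand counts on all miRNA genes (CPM). Mature arms of the 3 genes are 21 to 25 nt long, and counts were not divided by hairpin length. How evenly the library preparation captured different miRNAs was not measured, and ratios between genes are ratios of counts.

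Mir182 had 41059 counts in replicate 1 and 46593 in replicate 2, that is 11071 and 11488 CPM, with a mean of 11279 ± 295 CPM (SD, n = 2). It ranked 16 and 15 among all miRNA genes. Its 95% exact (Clopper-Pearson) counting interval ran from 10965 to 11178 CPM in replicate 1 and from 11384 to 11592 CPM in replicate 2. The intervals did not overlap, so the libraries differed by more than counting error, although by little in size.

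Mir183 had 28429 and 37555 counts, or 7666 and 9259 CPM, with a mean of 8462 ± 1127 CPM (SD, n = 2), at rank 27 and 19. Its counting intervals were 7577 to 7755 CPM and 9166 to 9353 CPM. Mir183 thus spread furthest between the libraries, with a coefficient of variation of 13.3% against 2.61% for Mir182 and 8.64% for Mir96.

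Mir96 had 11954 and 14775 counts, or 3223 and 3643 CPM, with a mean of 3433 ± 297 CPM (SD, n = 2), at rank 56 and 45. Its counting intervals were 3166 to 3281 CPM and 3584 to 3702 CPM. All 3 genes were above 1000 CPM in both libraries, as were 89 of the 1973 genes in all. No range of a gene overlapped that of another, so the order Mir182, Mir183, Mir96 was the same in both. With n = 2, a permutation test cannot pass 0.05 for any pair.

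Together the 3 genes took 2.20% of own-strand miRNA counts in replicate 1 (95% exact interval 2.18 to 2.21) and 2.44% in replicate 2 (2.42 to 2.45). The mean was 2.32% ± 0.172 (SD, n = 2). Of all reads in a library, those that named no gene included, the cluster took 0.955% and 1.29%. The labels state no molecular identifiers, so these intervals describe counting error alone and treat PCR copies as independent reads.

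Genes at the same level give a measure of where the cluster stood. By the difference in log2(CPM + 1) over both libraries, the 3 genes nearest to Mir182 were Mir26b (10694 and 11063 CPM), Mir196b (10590 and 11529 CPM) and Mir93 (10273 and 10196 CPM). Those nearest to Mir183 were Mir487b (7231 and 8799 CPM), Mir130b (7124 and 8630 CPM) and Mir744 (8686 and 8291 CPM). Those nearest to Mir96 were Mir30d (3589 and 3151 CPM), Mir872 (3018 and 3019 CPM) and Mir423 (3440 and 2883 CPM). The larger of the 2 library differences was 0.05 on the log2 scale for Mir26b and 0.34 for Mir423. Likeness over 2 libraries is likeness in level only.

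Genes cut from a shared precursor need not give equal counts, and the ratios within the cluster were compared next. Such ratios need no scaling between libraries. Mir182 exceeded Mir183 by 1.44-fold in replicate 1 (95% exact interval 1.42 to 1.47) and 1.24-fold in replicate 2 (1.22 to 1.26). Mir182 exceeded Mir96 by 3.43-fold (3.37 to 3.51) and 3.15-fold (3.10 to 3.21). Mir183 exceeded Mir96 by 2.38-fold (2.33 to 2.43) and 2.54-fold (2.49 to 2.59). For each pair the counting intervals of the 2 libraries did not overlap, so the makeup of the cluster differed between the libraries beyond counting error.

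Mir96 kept nearly the same part of the cluster's counts, 14.7% in replicate 1 (14.4 to 14.9) and 14.9% in replicate 2 (14.7 to 15.2). Mir182 made up 50.4% (50.1 to 50.8) and 47.1% (46.8 to 47.4), and Mir183 34.9% (34.6 to 35.2) and 38.0% (37.7 to 38.3). The difference lay chiefly between Mir182 and Mir183, whose ratio in replicate 2 differed by -14.1% from that in replicate 1.

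**Figure D2:**
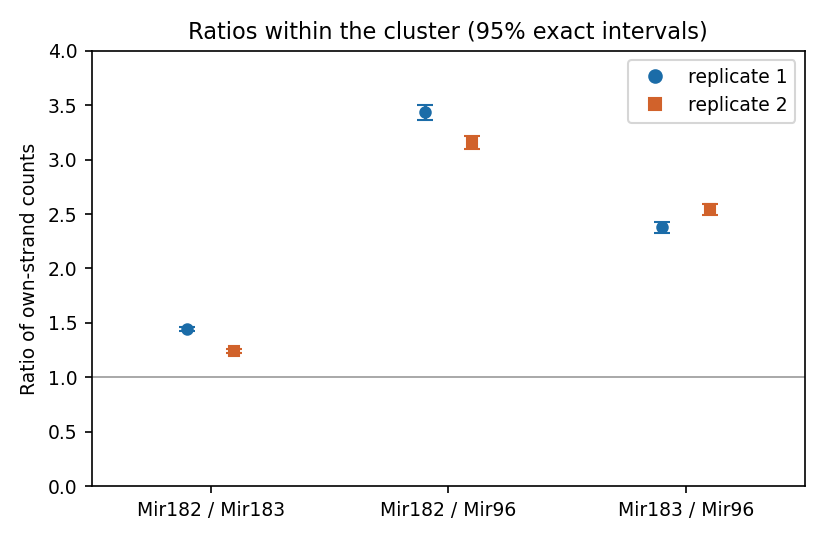
Ratio of own-strand counts (vertical axis, from 0) for the 3 pairs of genes of the cluster in each library, with 95% exact counting intervals as bars and a line at a ratio of 1. All ratios lie above 1, and Mir182 over Mir183 stood at 1.44 in replicate 1 and 1.24 in replicate 2.

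Neighbouring miRNA genes elsewhere in the genome put these ratios in context, by a comparison chosen after the values of the cluster were seen. Neighbours were consecutive genes on the same strand within 10 kb, taken among genes with at least 1000 summed counts. Genes below that count were passed over, so some pairs, such as Mir302b and Mir302a, have another miRNA gene between them. Over the 60 other pairs, the higher gene exceeded the lower by a median of 3.51-fold and by up to 55.1-fold (Mir130b over Mir301b). Mir182 exceeded Mir96 by 3.29-fold and Mir183 exceeded Mir96 by 2.46-fold on mean CPM, and 32 and 42 of the 60 pairs had a higher ratio. Between libraries, the log2 ratios of replicate 2 over replicate 1 differed by 0.12 for Mir182 and Mir96 and by 0.10 for Mir96 and Mir183. The other pairs differed by a median of 0.32 (0.05 to 1.04), and 48 and 52 of them differed more. Many of these pairs lie in large arrays on chromosomes 12 and X, where genes of lower counts carry more counting error, so the values describe the pairs and no test was made. Mir182 and Mir183 have Mir96, which reached that count, between them and did not enter this comparison. Their ratio changed most within the cluster, with a log2 change of -0.22 from replicate 1 to replicate 2.

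The cluster was compared with 3 lists of miRNA genes linked to epithelia, to eye and neurosensory cells, or to multiciliated cells. All were chosen with earlier results of these data known. Each of the 3 cluster genes was higher than any gene of these lists in both libraries. The lowest cluster value, 3223 CPM for Mir96 in replicate 1, stood above the highest list value, 1691 CPM for Mir203 in replicate 2.

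Among the epithelial genes, Mir203 of the epidermis had 1666 and 1691 CPM and Mir205 of basal epithelial cells 1122 and 927 CPM. The Mir200 family, which holds cells in the epithelial state, was lower. Its highest member Mir429 had 635 and 539 CPM, and its lowest, Mir200a, 38.3 and 29.1 CPM. Summed over the 7 epithelial genes, the list came to 4063 and 3670 CPM, and the cluster exceeded it by 5.40-fold and 6.65-fold.

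The eye and neurosensory genes summed to 747 and 677 CPM, less than the epithelial list, although single genes such as Mir375 stood above Mir200a and Mir141. The endocrine Mir375 had 222 and 226 CPM, and Mir7-1, known from neuroendocrine cells, 240 and 181 CPM. Mir204, abundant in retinal pigment epithelium and lens, had 37.2 and 41.4 CPM. Its paralog Mir211, a gene of pigment cells, had 22 and 48 counts, or 5.93 and 11.8 CPM, and Mir184 of cornea and lens had 4 and 2 counts. The cluster exceeded the sum of these 7 genes by 29.4-fold and 36.0-fold. Mir7-1, Mir7-2 and Mir7b yield the same or nearly the same mature miRNA, so part of their reads may map to several places and be counted for no gene.

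Genes of multiciliated cells, the Mir34 and Mir449 genes, summed to 1610 and 1230 CPM. Mir34c led with 1162 and 972 CPM, Mir449a had 335 and 156 CPM, and Mir449b and Mir449c had at most 3 counts each. The cluster exceeded this list by 13.6-fold and 19.8-fold.

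**Figure D3:**
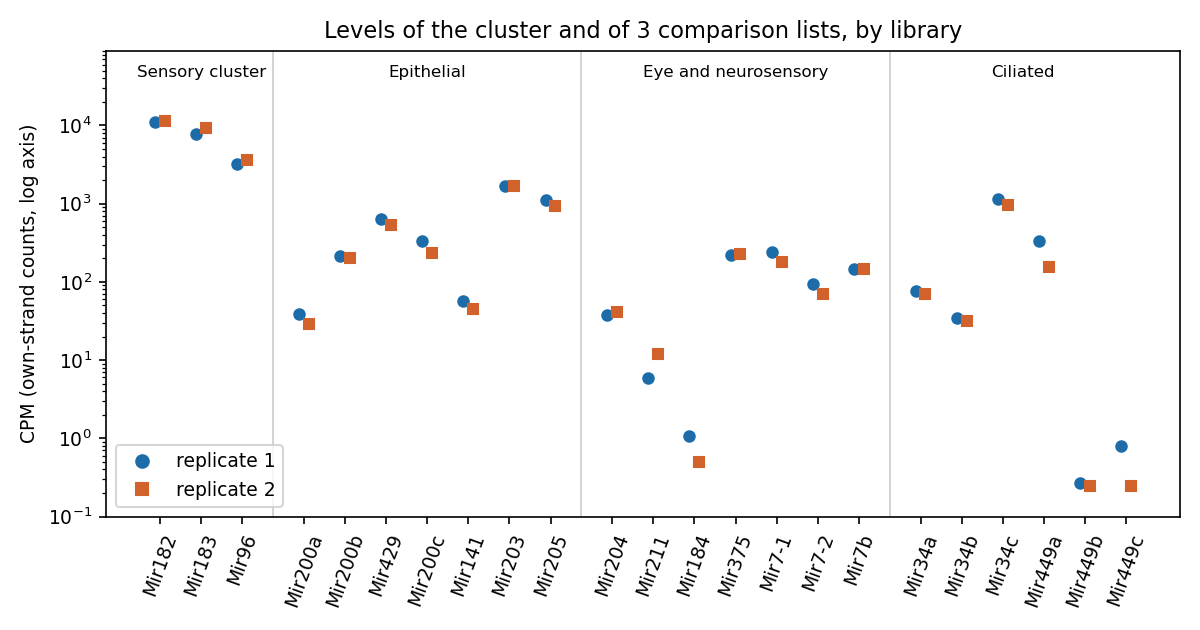
Level (CPM of own-strand counts, log axis) of the 3 cluster genes and of the 7 epithelial, 7 eye and neurosensory and 6 ciliated genes, with 1 point per library. The 3 cluster genes stand above every gene of the lists in both libraries, with Mir203 the nearest below.

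Markers of the labelled tissue were present at very unequal levels, and not all lay below the cluster genes. The neural list summed to 7952 and 7024 CPM over the 9 of 10 genes with a row used here. It was led by Mir92b of neural progenitors (5250 and 4708 CPM) and Mir137 (2169 and 1761 CPM). All other genes of the list were far lower, from Mir218-2 (279 and 303 CPM) and Mir9-3 (200 and 200 CPM) down to Mir9-2 (2.16 and 2.47 CPM) and Mir124a-3 (1.89 and 1.23 CPM). Mir92b was higher than Mir96 in both libraries and lower than Mir182 and Mir183. The cluster exceeded the neural sum by 2.76-fold and 3.47-fold. Copies of Mir9 and Mir124a carry the same mature miRNA and their reads can map to several places, so these ratios cover only the reads counted. Mir126a, which marks endothelium, had 24945 and 22302 CPM, above the whole cluster (21960 CPM) in replicate 1 and below it (24390 CPM) in replicate 2. The 6 mesenchyme genes, which include the copies Mir199a-1 and Mir199a-2, may also lose reads that map to several places. By the reads counted, they summed to 23950 and 17615 CPM, likewise above the cluster in replicate 1 and below it in replicate 2. Among them, Mir214 had 11919 and 7968 CPM, above Mir182 in replicate 1 only, and Mir143 (6327 and 5251 CPM) and Mir140 (5450 and 4192 CPM) were higher than Mir96 in both. Which cells of the pools held Mir182, Mir183 and Mir96 was not measured. In such bulk samples, fewer cells of a type and less RNA per cell cannot be told apart.

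The last comparison asked how far the 2 libraries differed for the cluster. Each gene's counts were set against the library totals in an exact binomial test (two-sided). P-values were adjusted by Benjamini-Hochberg across 444 tested genes, those that reached 10 summed counts. Of these, 53.2% passed at 0.05, 45.3% with the gene higher in replicate 1 and 7.88% with the gene higher in replicate 2. All 3 genes of the cluster passed, and all 3 were higher in replicate 2. The median of their log2 ratios (replicate 2 over replicate 1) was 0.18, against -0.27 for all 444 genes.

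Mir183 was 1.21-fold higher in replicate 2 (log2 ratio 0.27, exact binomial adjusted p = 2.68e-127). Mir96 was 1.13-fold higher (log2 ratio 0.18, exact binomial adjusted p = 1.19e-22), and Mir182 1.04-fold higher (log2 ratio 0.05, exact binomial adjusted p = 1.64e-07). Their log2 ratios lay above those of 89.6%, 86.7% and 80.0% of tested genes. The differences are small, and their low p-values come with counts of 11954 or more per gene and library. The test compares these 2 libraries and not conditions. It takes PCR copies, which were not measured, as independent reads, and any such copies make its p-values too low. The test also allows for no variation between pools.

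**Figure D4:**
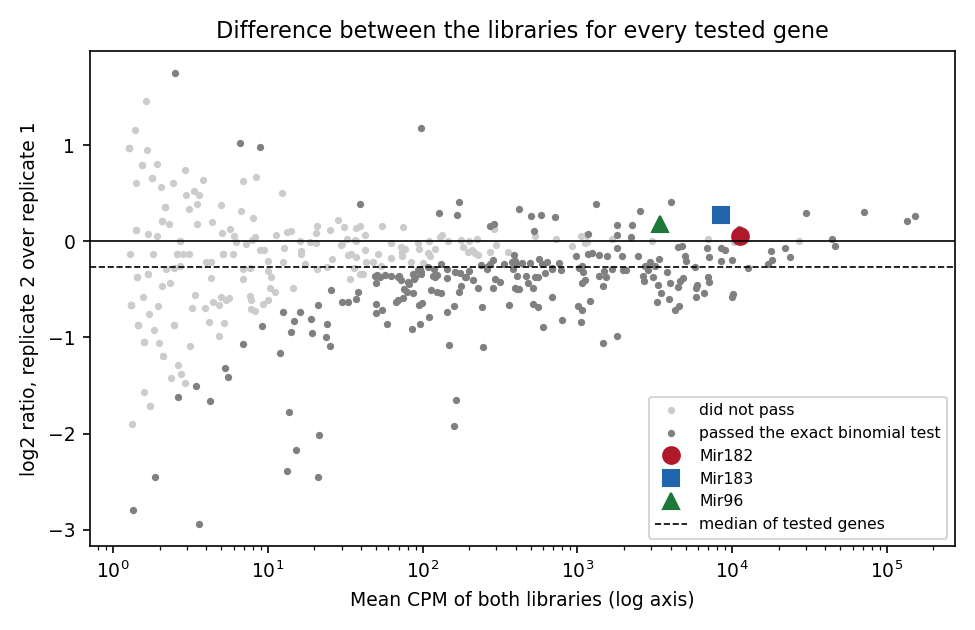
log2 ratio of replicate 2 over replicate 1 (vertical axis) against mean CPM (log axis) for the 444 tested genes, with genes that passed the exact binomial test in dark grey. Mir182, Mir183 and Mir96 lie above the line at 0 and above the dashed median of -0.27.

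The size of this difference depended on the scaling. By plain totals, most tested genes were lower in replicate 2. With trimmed-mean (TMM) factors, the median of all tested genes moved to 0.02, a shift of over 0.1, and the 3 genes stood at 1.26-fold for Mir182, 1.47-fold for Mir183 and 1.38-fold for Mir96 in favour of replicate 2, with all 3 past the same test. Of all tested genes, 40.1% passed with TMM factors, 18.5% higher in replicate 1 and 21.6% higher in replicate 2. Relative to the median tested gene, a distance that scaling of own-strand counts does not change, the log2 ratios were 0.32 for Mir182, 0.54 for Mir183 and 0.44 for Mir96.

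**Figure D5:**
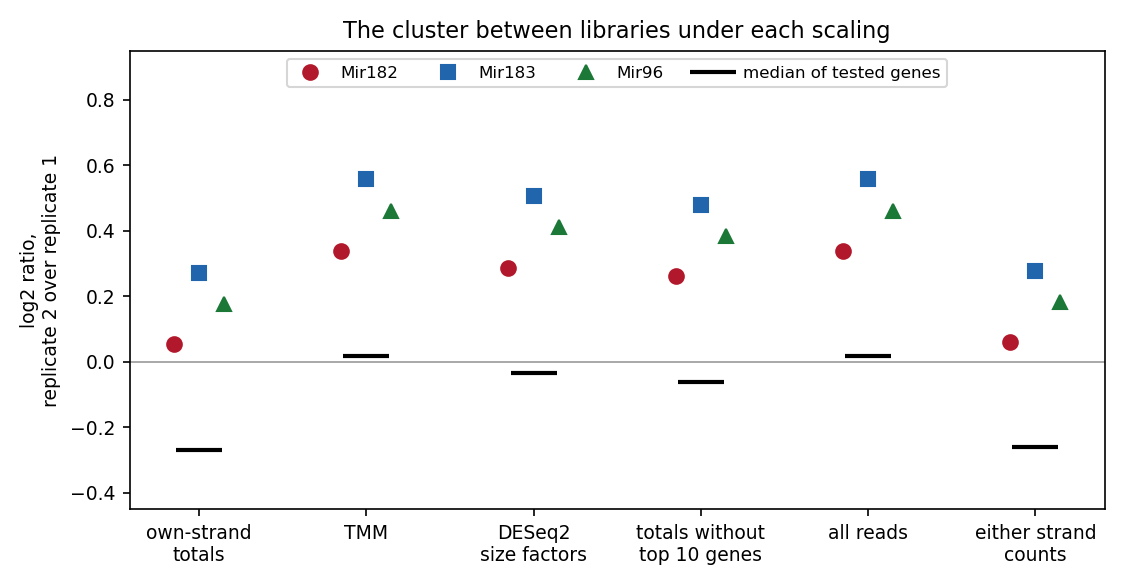
log2 ratio of replicate 2 over replicate 1 (vertical axis) for Mir182, Mir183 and Mir96 under 6 ways of scaling or counting, with the median of all tested genes as a black bar. All 3 genes lie above 0 and above the median under each of the 6, from 0.05 for Mir182 with own-strand totals to 0.56 for Mir183 with TMM factors or all reads.

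Markers of other tissues also differed between the libraries. By plain totals, the summed level in replicate 2 was 0.567 times that in replicate 1 for 5 muscle genes with a row used here (1398 and 793 CPM), of which Mir133a-1 and Mir133a-2 were at 0 in both. These copies carry the same mature miRNA, whose reads can map to several places, so their 0 need not mean absence. The summed level was 0.736 times for 6 mesenchyme genes (23950 and 17615 CPM). It was 0.711 times for the 3 of 4 listed blood genes with a row used here (786 and 559 CPM), without Mir142. For the 6 ciliated genes it was 0.764 times. With TMM factors the sums of the muscle, mesenchyme, blood and ciliated lists stood at 0.691, 0.896, 0.865 and 0.930 times. Gene by gene, TMM factors gave 1 of 2 tested muscle genes higher in replicate 1 (Mir206, which held most of that list's counts), 2 of 6 mesenchyme genes, 2 of 3 blood genes and 1 of 4 ciliated genes (Mir449a), with 0 higher in replicate 2 and the rest not past the test. The median log2 ratio of the tested ciliated genes was then 0.08, opposite in sign to the change of their sum.

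The neural, epithelial, eye and neurosensory and endothelial sums stood at 0.883, 0.903, 0.906 and 0.894 times by plain totals, but at 1.08, 1.10, 1.10 and 1.09 times with TMM factors. Their direction thus turned with the scaling. TMM factors raised the log2 ratio of every gene by the same amount. Mir182, Mir183 and Mir96, already above 0 by plain totals, could therefore not turn, and their kept direction does not set them apart from these lists. By the exact binomial test on plain totals, replicate 1 was higher for 4 of 7 epithelial genes and replicate 2 for 0, while 3 did not pass. Of the 6 eye and neurosensory genes tested, replicate 1 was higher for 2, replicate 2 for 1 (Mir211), and 3 did not pass. With TMM factors these counts were 1, 2 and 4 for the epithelial list and 0, 4 and 2 for the eye and neurosensory list. The part of tissue makeup in the difference between the libraries was not tested.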

How the data were processed

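Small RNA libraries from 2 pools of neural tube were analysed. The authors deposited raw read counts per miRNA gene on mm10 with GENCODE M4, per the file headers. The aligner and counter, and whether adapters were trimmed, were not given in the sources used here. Each file held 3 unnamed columns of counts, read from their values as either strand, own strand and opposite strand, and own-strand counts were used. Rows that name no gene (56.5% of reads in replicate 1 and 47.0% in replicate 2, multi-mapped and unmapped reads included) stayed out of totals and tests. Own-strand totals were 3708662 and 4055883.

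Symbols and coordinates came from GENCODE M21 (1894 of 1973 genes matched) and sequences from RefSeq on GRCm38.p6. CPM is per 1000000 own-strand gene counts. Log2 ratios carry a pseudocount of 0.5 counts. The exact binomial test, with Benjamini-Hochberg adjustment over 444 genes, was run on simulated counts that held counting noise only. These lacked PCR copies and variation between pools, so the run does not show how the test behaves on these libraries. Named genes were the cluster, the 3 genes nearest in level to each member, the listed genes and the neighbours by position. Members and lists were chosen with earlier results of these data known. The libraries are labelled as biological replicates, and nothing more ties them. Alternatives were edgeR 4.0.16 (TMM) and DESeq2 1.42.0 size factors under R 4.3.3, other totals, either-strand counts, other filters and pseudocounts. Other steps used scipy 1.17.1, pandas 2.3.3 and numpy 2.4.6 under Python 3.11.15. The number of per-sample columns tied to no sample was 0.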

Additional observations from a re-analysis of the deposited data

Results flagged for a closer look

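Reads on the strand opposite the cluster genes, which entered the comparisons above only within the either-strand alternative, passed the 3 counts that a count of 0 allows in replicate 2 for Mir182 (7 counts) and Mir183 (4 counts). They were 0.0150% of the reads on either strand of Mir182 and 0.0106% of those of Mir183. In replicate 1 the opposite strand held 3 counts for Mir182 and 1 for Mir183, and for Mir96 it held 0 counts in replicate 1 and 1 in replicate 2.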

How the results depend on the processing

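All 27 alternatives of the library difference of Mir182, Mir183 and Mir96 kept its direction and stayed past the threshold. The pseudocount does not enter the exact binomial test, and other count filters change only the adjustment of its p-values. At counts this high, those settings could hardly change the outcome, so their agreement carries little weight. Of 15 alternatives of levels, shares and ratios with both libraries, the 7 with either-strand counts stayed within 1 SD, and the 8 others used another total. Per 1000000 of all reads, Mir182, Mir183 and Mir96 stood at 5450, 4119 and 1666 and the cluster's share at 1.12%. With totals that leave out the 10 most abundant genes, they stood at 26482, 19976 and 8085 CPM and 5.45%. Without 1 replicate, where n = 2 fixes the distance from the mean below 1 SD, Mir182 ranged from 11071 to 11488 CPM, Mir183 from 7666 to 9259, Mir96 from 3223 to 3643 and the share from 2.20% to 2.44%. Genes higher in replicate 1 and in replicate 2 numbered 201 and 35 with plain totals, 82 and 96 with TMM factors or all reads, 102 and 85 with DESeq2 size factors, and 110 and 74 without the 10 most abundant genes. The library difference could not be run without a replicate. No paired analysis was possible because there is 1 group. With neighbours set at 5 kb or 50 kb, chosen after seeing the data, 49 and 57 pairs differed more than Mir96 and Mir183. Arms of a hairpin were not resolved at any depth.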
